A study of Mus musculus with 9 samples.

Results

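Log2 values on 9 arrays are given for 9 genes of the young neuron's microtubules and growth cone: Tubb3, Dcx, Map2, Mapt, Stmn2, Stmn3, Gap43, Dpysl3 and Crmp1. They were chosen by name for what their proteins do, as a list of 9 Ensembl identifiers, and all 9 were found among the 12188 entries of the deposited table. Earlier results of these data were known when the list was made. The table itself carries identifiers with no gene names, so the names are those given with the list. RNA came from the dorsal telencephalon, the wall of the embryonic forebrain that becomes the cerebral cortex, of mouse embryos of strain C57Bl6/J at E13.5. The 5 Dicer knockout embryos (knockouts 5, 7, 9, 10 and 11) were conditional mutants of the enzyme that cuts microRNA precursors into mature microRNAs. They were all labelled male, and their samples are described as lacking miRNAs. The 4 control embryos were labelled female (controls 1 and 2) or male (controls 3 and 4). Their titles carry the prefix HTZ, their alleles are not spelled out, and the promoter that drives the deletion is not given in the sources used here. Some of the embryos were littermates, but which ones is not given, and each embryo was tested as an independent sample. Each embryo gave 1 Affymetrix array, and a value is a log2 signal already processed by the authors.

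A migrating or newly settled cortical neuron builds its axon and dendrites on microtubules, polymers of alpha- and beta-tubulin. Doublecortin, tau and MAP2 bind and stabilise these polymers, whereas stathmins bind free tubulin and favour disassembly. At the tip of the growing axon, the growth cone, GAP-43 acts at the membrane and the collapsin response mediator proteins link guidance signals such as semaphorins to the cytoskeleton. Dividing progenitors of the ventricular zone express these genes weakly or not at all, so that in this tissue they are used as signs of neurons. Because each array reads a mixture of progenitors and neurons, fewer neurons and less RNA per neuron cannot be told apart in any value below.

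The arrays were alike in scale, with medians between 7.61 and 7.75 log2 units. Of the 81 values of the 9 genes, 80 lay above the median of their own array. The exception, Mapt in control 4, lay 0.04 log2 units under it. No detection call per entry was used here, so this is a check of brightness and not of detection. Control 4 stood apart on these genes, while over all entries its median deviation from the control mean was -0.002. It had the lowest value of the 4 controls for 8 of the 9 genes, and knockout 7 had the lowest value of the 5 knockouts for 7 of them. Results are therefore given with and without control 4, which was singled out on the same values that are tested below.

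Promoters are printed for 4 of the genes. Tubb3 is the gene that differed between genotypes, Dcx and Map2 are the pair whose deviations between embryos were most alike once control 4 was set aside, and Stmn3 parted from its relative Stmn2. The windows run from 250 bases before to 50 bases after a RefSeq transcription start in GRCm38.p6, on the strand of the gene. Tubb3 lies at chr8:123411303-123411602 (plus strand), Dcx at chrX:143933170-143933469 (minus strand), Map2 at chr1:66175079-66175378 (plus strand) and Stmn3 at chr2:181314451-181314750 (minus strand). Capitals mark matches, on either strand, to CAGATG and CAGCTG, E-box forms of the CANNTG type that proneural basic helix-loop-helix factors bind, to GGGCGG, the GC box, and to TATAAA, the TATA box.
Tubb3: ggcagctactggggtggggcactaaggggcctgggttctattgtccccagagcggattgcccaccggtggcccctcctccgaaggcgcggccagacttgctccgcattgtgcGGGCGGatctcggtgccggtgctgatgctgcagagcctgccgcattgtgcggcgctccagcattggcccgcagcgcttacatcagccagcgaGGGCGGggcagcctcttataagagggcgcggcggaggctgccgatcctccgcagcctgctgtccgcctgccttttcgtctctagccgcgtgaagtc
Dcx: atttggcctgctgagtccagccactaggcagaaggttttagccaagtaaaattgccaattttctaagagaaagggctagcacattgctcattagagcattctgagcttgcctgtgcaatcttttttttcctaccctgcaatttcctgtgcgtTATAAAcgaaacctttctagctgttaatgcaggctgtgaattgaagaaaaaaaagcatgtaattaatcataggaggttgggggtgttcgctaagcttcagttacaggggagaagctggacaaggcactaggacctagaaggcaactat
Map2: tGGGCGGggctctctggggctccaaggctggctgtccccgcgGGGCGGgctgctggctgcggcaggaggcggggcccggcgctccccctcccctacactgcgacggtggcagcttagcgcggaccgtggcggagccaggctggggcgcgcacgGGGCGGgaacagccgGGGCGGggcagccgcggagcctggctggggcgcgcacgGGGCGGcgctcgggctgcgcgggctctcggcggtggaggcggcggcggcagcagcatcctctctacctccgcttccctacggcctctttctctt
Stmn3: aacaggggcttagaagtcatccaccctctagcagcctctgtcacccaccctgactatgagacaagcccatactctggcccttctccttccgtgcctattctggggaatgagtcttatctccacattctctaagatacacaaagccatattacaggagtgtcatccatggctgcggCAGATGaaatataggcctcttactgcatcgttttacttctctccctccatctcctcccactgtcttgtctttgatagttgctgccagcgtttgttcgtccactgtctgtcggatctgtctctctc

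The Tubb3 window held 2 GC boxes and the Map2 window 5, in sequence of 67.3% and 77.7% G and C. The Dcx window had 43% G and C and held 1 match to TATAAA, not placed against the start here, and the Stmn3 window had 49.7% and held 1 CAGATG. No CAGCTG was found in the 7 windows listed for Tubb3, Dcx, Map2, Stmn3 and Crmp1 (0 matches). Of 32851 promoter windows of this length, 35.7% held GGGCGG, 17.2% CAGATG, 16.3% CAGCTG and 13.6% TATAAA. These are letter matches and describe no binding.

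The comparison of genotypes asked whether transcripts of the neuronal cytoskeleton differ when Dicer is lost from the dorsal telencephalon. Tubb3, the neuron-specific beta-tubulin, was higher in the knockouts, and it was the sole gene of the 9 to pass the test over all 9 arrays. Genes were called at an adjusted p under 0.05 (limma over all 12188 entries, Benjamini-Hochberg, two-sided). Of all 12188 entries in the table, the share called was 24.6%, and 11% were called higher in the knockout, so 1 called gene of 9 is no larger a share than the background. The median log2 change of the 9 genes was 0.31, against -0.02 for all entries, and it moved with single embryos. It was 0.01, against -0.01 for all entries, without control 4, and 0.13, against -0.02, without knockout 7 and control 4 together. It was 0.18 without knockout 9 and 0.13 with array weights.

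**Figure D1:**
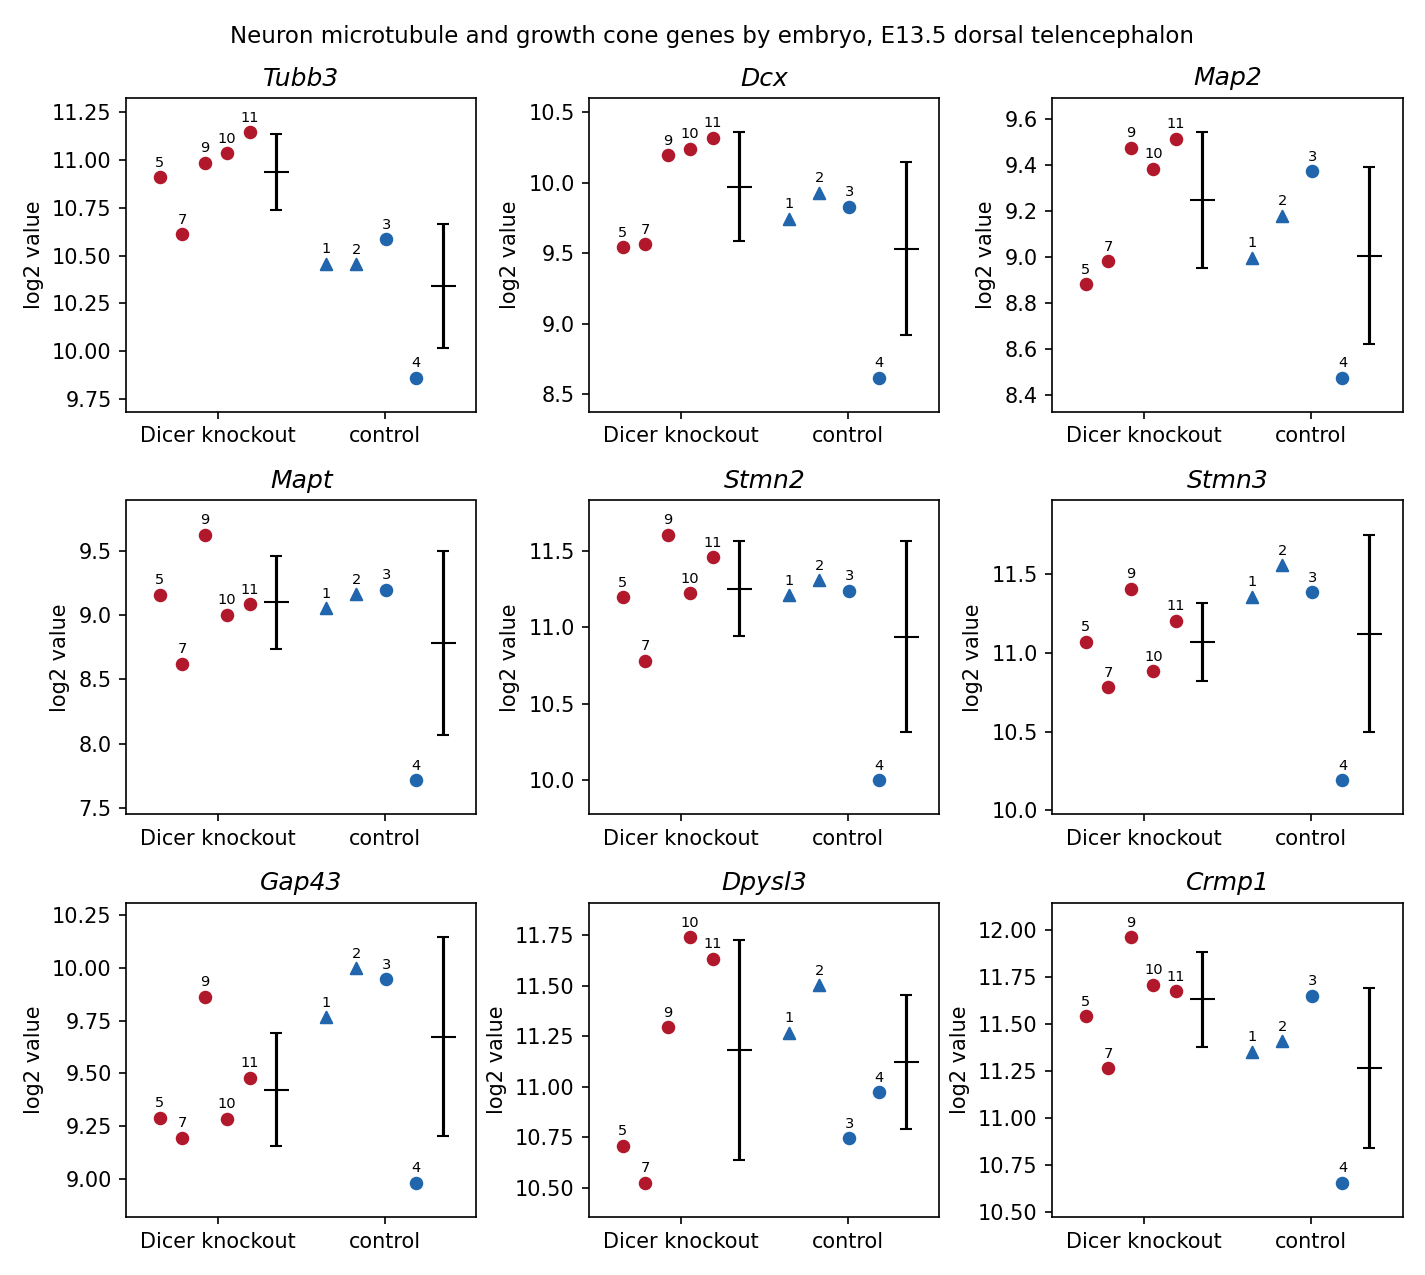
Log2 values (vertical axis, a range of its own in each panel) of the 9 genes in 5 Dicer knockout embryos (red, left) and 4 control embryos (blue, right), each point 1 array with its replicate number, circles for embryos labelled male and triangles for those labelled female. Black bars give the group mean and SD. Control 4 is the lowest control in every panel but that of Dpysl3, and the groups are fully apart for Tubb3 alone.

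Tubb3 (ENSMUSG00000062380_at; chr8:123411553-123422015, GRCm38.p6) had log2 values of 10.91, 10.61, 10.99, 11.04 and 11.15 in knockouts 5, 7, 9, 10 and 11, against 10.46, 10.45, 10.59 and 9.86 in controls 1 to 4. Every knockout lay above every control, though the lowest knockout and the highest control were only 0.03 log2 units apart. Groups that did not overlap were found for 24.1% of all entries. Knockouts averaged 10.94 ± 0.20 (SD, n = 5) and controls 10.34 ± 0.33 (SD, n = 4). The log2 change was 0.60 (SE 0.15, 95% confidence interval 0.26 to 0.94), which is 1.51-fold (limma adjusted p = 0.0185). Without control 4 the log2 change was 0.44 (SE 0.11, adjusted p = 0.0171). With any 1 array left out the adjusted p lay between 0.0115 and 0.0465. In a fit of the 7 males alone the change was 0.71 and the adjusted p 0.0813, so the call was lost there.

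Among the microtubule-associated proteins, no gene passed the test. Dcx (ENSMUSG00000031285_at; chrX:143855842-143933396), which encodes the doublecortin of migrating neurons, had values of 9.54, 9.56, 10.20, 10.24 and 10.32 in the knockouts, against 9.75, 9.93, 9.83 and 8.62 in controls 1 to 4. The knockouts fell on both sides of controls 1 to 3, with knockouts 5 and 7 under them and knockouts 9, 10 and 11 over them. The log2 change was 0.44 (95% confidence interval -0.18 to 1.07, limma adjusted p = 0.29), and 0.14 (-0.29 to 0.56) without control 4. Map2 (ENSMUSG00000015222_at; chr1:66175202-66442583), a protein of dendrites, showed the same order, with knockouts 5 and 7 at 8.88 and 8.98 and knockouts 9 to 11 at 9.38 to 9.52. Controls 1 to 3 had 8.997 to 9.37 and control 4 had 8.48. Its log2 change was 0.24 (95% confidence interval -0.19 to 0.67, limma adjusted p = 0.41), and 0.06 (-0.29 to 0.42) without control 4.

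Mapt (ENSMUSG00000018411_at; chr11:104229409-104332090), which encodes tau, the main such protein of axons, had values of 9.16, 8.62, 9.62, 9.004 and 9.08 in the knockouts, against 9.05, 9.16, 9.20 and 7.72 in controls 1 to 4. Controls 1 to 3 sat within the range of the knockouts, and control 4 lay far under every other embryo. The log2 change was 0.32 (95% confidence interval -0.36 to 0.99, limma adjusted p = 0.5) with all arrays and -0.04 (-0.44 to 0.36) without control 4, so its sign turned with that array.

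Neither stathmin was called, with or without control 4. Stmn2 (ENSMUSG00000027500_at; chr3:8509527-8561604), also known as SCG10, had values of 11.20, 10.78, 11.61, 11.22 and 11.46 in the knockouts, against 11.21, 11.31, 11.24 and 9.998 in controls 1 to 4. Apart from control 4 the groups overlapped fully. Its log2 change was 0.31 (95% confidence interval -0.28 to 0.91, limma adjusted p = 0.444), and without control 4 it was 0.00 (-0.35 to 0.35). Stmn3 (ENSMUSG00000027581_at; chr2:181306459-181314500), also known as SCLIP, had values of 11.07, 10.78, 11.41, 10.88 and 11.20 in the knockouts, against 11.36, 11.56, 11.39 and 10.19 in controls 1 to 4. Here 4 of the 5 knockouts lay under controls 1 to 3, and knockout 9 lay among them. The log2 change was -0.05 (95% confidence interval -0.62 to 0.52, limma adjusted p = 0.905) with all arrays. Without control 4 it was -0.36 (-0.66 to -0.07, adjusted p = 0.0706), which missed the threshold.

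Gap43 (ENSMUSG00000047261_at; chr16:42248552-42340651), the growth cone membrane protein, had values of 9.29, 9.20, 9.86, 9.29 and 9.48 in the knockouts, against 9.77, 9.9997, 9.95 and 8.98 in controls 1 to 4. Knockouts 5, 7, 10 and 11 lay under controls 1 to 3, knockout 9 lay between controls 1 and 3, and control 4 was the lowest of all 9 embryos. With all arrays the log2 change was -0.25 (95% confidence interval -0.72 to 0.22, limma adjusted p = 0.435). Without control 4 the gene was called, as knockouts averaged 9.42 ± 0.27 (SD, n = 5) and controls 1 to 3 averaged 9.90 ± 0.12 (SD, n = 3). All 4 controls averaged 9.67 ± 0.47 (SD). Control 4 was left out for its low values of these same genes, Gap43 among them, so this call is not independent of that choice. The log2 change was then -0.48 (SE 0.14, 95% confidence interval -0.80 to -0.16, limma adjusted p = 0.0313). In that fit 26.8% of all entries were called and 14.6% were called lower in the knockout, and of the 9 genes Gap43 was called lower and Tubb3 higher. Without knockout 7 as well, Gap43 was at -0.43 with a limma adjusted p of 0.0553. Tubb3 was then the 1 called gene of 9 (0.52, adjusted p = 0.00252), where 27.3% of all entries were called.

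Of the collapsin response mediator genes, Crmp1 (ENSMUSG00000029121_at; chr5:37242058-37292163) had 11.27 to 11.96 in the knockouts, against 11.35 to 11.65 in controls 1 to 3 and 10.66 in control 4. Its log2 change was 0.36 (95% confidence interval -0.07 to 0.80, limma adjusted p = 0.21), and 0.16 (-0.15 to 0.47) without control 4. Dpysl3 (ENSMUSG00000024501_at; chr18:43320979-43438286), also known as CRMP-4, had values of 10.71, 10.53, 11.29, 11.74 and 11.63 in the knockouts, against 11.27, 11.50, 10.75 and 10.97 in controls 1 to 4. It was the one gene at which control 4 was not the lowest control. Its knockout SD of 0.54 exceeded its control SD of 0.33, and its log2 change was 0.06 (95% confidence interval -0.53 to 0.64, limma adjusted p = 0.897), and 0.01 (-0.64 to 0.65) without control 4. The intervals of the 8 genes that were not called reach from -0.72 to 1.07, so moderate changes either way are within the error of these arrays.

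**Figure D2:**
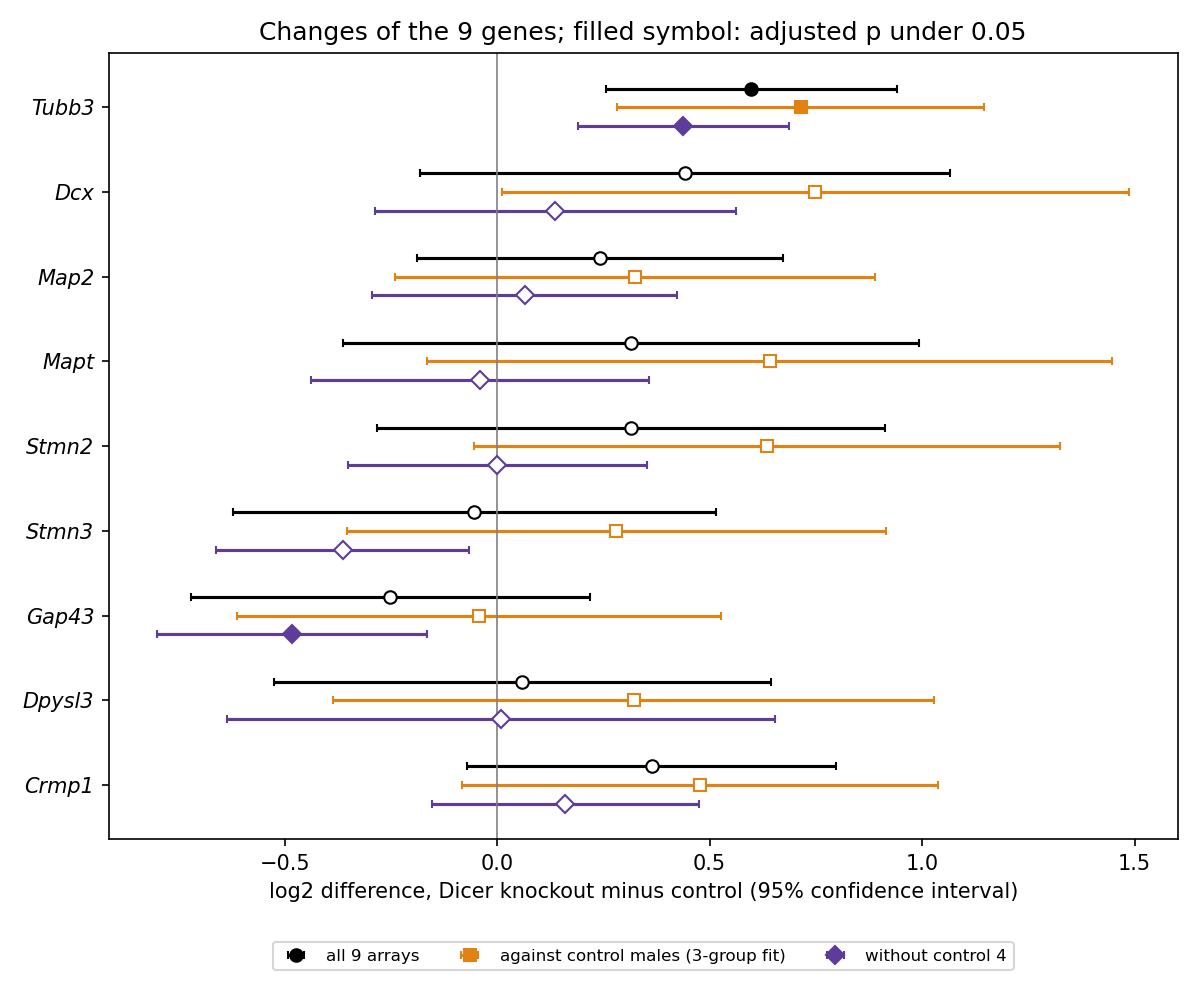
Log2 difference of Dicer knockout minus control (horizontal axis) with its 95% confidence interval for the 9 genes, over all 9 arrays (black circles), against control males in the 3-group fit (orange squares) and without control 4 (purple diamonds). Filled symbols passed an adjusted p under 0.05: Tubb3 in all 3 fits, and Gap43 (-0.48) without control 4.

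Because every knockout was labelled male, the genes were also compared with the 2 control males with the arrays fitted as 3 groups by genotype and labelled sex. Tubb3 was again the gene called, 1 of 9 where 10.5% of all entries were called, with a log2 change of 0.71 and a limma adjusted p of 0.0469. The other 8 genes did not pass, with changes from -0.04 for Gap43 to 0.75 for Dcx (adjusted p = 0.158). The call depended on single arrays. It was lost without knockout 5, 9, 10 or 11 or control 1, 2 or 4, with adjusted p from 0.0685 to 0.275 and log2 changes of 0.35 (without control 4) to 0.72. Without control 3, control 4 was the lone control male, assumed to vary like the other groups, and 6 of the 9 genes were called higher in the knockout, where 18.8% of all entries were called. Each of those calls compares the knockouts with control 4 alone, whose values were low. Of these genes, only Tubb3 was also called without control 4 in the fit of knockouts against controls of both sexes (log2 change 0.44, limma adjusted p = 0.0171). In the comparison with control males it was not called once control 4 was left out (log2 change 0.35, as given above).

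Between control males and control females no gene of the 9 was called, and 0% of all entries were (limma, 0 genes of the 9 and 869 entries of the table at an unadjusted p under 0.05). All 9 differences were negative, from -0.67 for Stmn3 to -0.16 for Map2, with control 4 as 1 of the 2 males. Dcx, which is on the X chromosome, had 9.83 and 8.62 in the control males, against 9.75 and 9.93 in the control females. Control 3 thus lay between the females and control 4 under them. Without control 3, Mapt (-1.39), Stmn2 (-1.26) and Stmn3 (-1.26) were called lower in the male, where 8.02% of all entries were called. The male was then control 4 alone, with its spread taken from the other groups, so these calls restate its low values. Labelled sex and the place of control 4 cannot be told apart in that comparison.

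Over all 9 arrays, the genes varied more between embryos of the same genotype than most of the table. The median within-group SD of the 9 genes was 0.451 log2 units, against 0.143 for all entries. All 9 exceeded the median of the table, and 8 were in its top 10%, Tubb3 being the exception at the level below which 85.7% of entries lay. Control 4 is part of these SDs. Among controls 1 to 3 alone the SD was 0.05 for Stmn2, 0.07 for Mapt, 0.08 for Tubb3 and 0.09 for Dcx. It was 0.11 for Stmn3, 0.12 for Gap43, 0.16 for Crmp1, 0.19 for Map2 and 0.39 for Dpysl3. The knockouts had SDs from 0.20 for Tubb3 to 0.54 for Dpysl3. The SD of all entries without control 4 is not given here. In control 4 the distance from the mean of controls 1 to 3 was -1.42 for Mapt, -1.26 for Stmn2, -1.24 for Stmn3 and -1.22 for Dcx. Fewer than 1% of entries lay lower in that array for each of these (0.246% for Mapt and 0.55% for Dcx), while the median entry was at 0.00. Gap43 was at -0.92, Crmp1 at -0.81, Map2 at -0.71, Tubb3 at -0.64 and Dpysl3 at -0.20. Knockout 7 lay in the same direction from the mean of the other knockouts, by -0.82 for Dpysl3 and by -0.60 for Mapt to -0.28 for Gap43 among the other genes. The part of litter, stage, dissection and cell make-up in these distances was not tested.

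**Figure D3:**
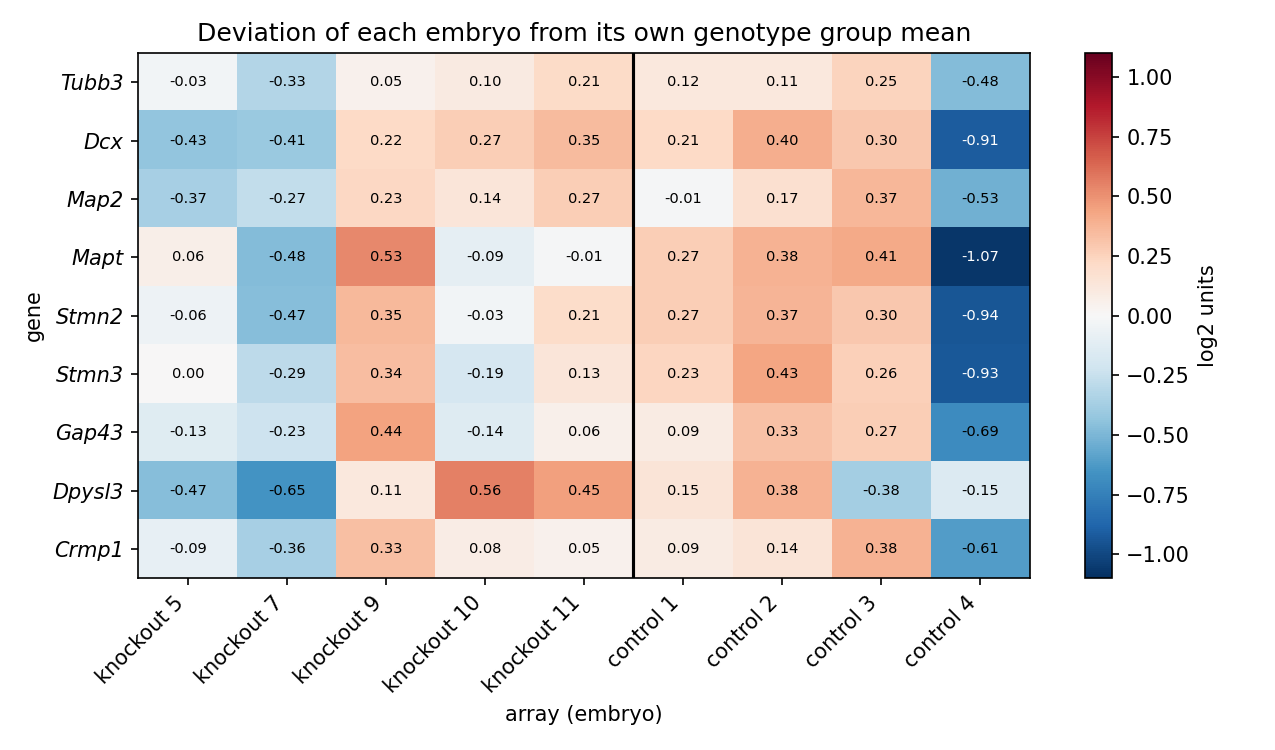
Deviation of each embryo from the mean of its own genotype group in log2 units (colour and number), for the 9 genes (rows) in 5 Dicer knockout embryos (left of the line) and 4 controls (right). Control 4 is negative in every row, down to -1.07 for Mapt, and knockout 7 is negative in every row, while Dpysl3 departs from the shared order in control 3 and knockout 10.

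The deviations of the genes from their group means went together across embryos. Among the 28 pairs without Dpysl3, Pearson's r over 9 arrays ran from 0.777 to 0.977, with a median of 0.905. It was highest for Stmn2 with Stmn3. Much of this came with control 4. Over the other 8 arrays, r ran from 0.436 to 0.914 with a median of 0.758, and the closest pair was Dcx with Map2. Stmn3 with Gap43 (0.911) and Stmn2 with Stmn3 (0.906) were nearly as close. The 8 pairs with Dpysl3 had r from 0.269 to 0.626 over 9 arrays. Over 8 arrays Dpysl3 had r of 0.87 with Dcx and 0.293 with Mapt. These values describe 9 shared arrays and carry no test. Among all other entries, the 2 whose levels followed the mean of the 9 genes most closely over the 9 arrays were ENSMUSG00000006651_at (r = 0.985) and ENSMUSG00000038170_at (r = 0.981). Of these, ENSMUSG00000006651_at had 10.08 to 10.69 in the knockouts, against 10.36 to 10.45 in controls 1 to 3 and 9.53 in control 4, and neither was called (limma adjusted p = 0.378 and 0.449).

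Differences between 2 genes on the same array take out what an embryo's array shares between both, but not the part of a distance such as that of control 4 that differs between them. This comparison was chosen after the values were seen, and is given as a description. The difference Tubb3 minus Gap43 was 1.62, 1.42, 1.12, 1.75 and 1.67 log2 units in knockouts 5, 7, 9, 10 and 11, against 0.69, 0.45, 0.64 and 0.88 in controls 1 to 4. Every knockout lay above every control, and control 4 was the highest control. Knockouts averaged 1.51 ± 0.25 (SD, n = 5) and controls 0.67 ± 0.17 (SD, n = 4), which is 0.85 apart. The difference Stmn2 minus Stmn3 was 0.13, 0.00, 0.20, 0.34 and 0.26 in the knockouts, against -0.14, -0.25, -0.15 and -0.19 in the controls. This difference was higher in all 5 knockouts than in any control, averaging 0.18 ± 0.13 (SD, n = 5) against -0.18 ± 0.05 (SD, n = 4). Both pairs were picked from the 36 pairs of the 9 genes. Of all pairs of entries in the table, 23.8% also had groups that did not overlap.

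Tubb3 minus Stmn3 overlapped between the groups, because knockout 9 (-0.42) lay under control 4 (-0.33). Knockouts averaged -0.13 ± 0.21 (SD, n = 5) and controls -0.78 ± 0.33 (SD, n = 4). Of the 36 pairs of the 9 genes, 11 (30.6%) had groups that did not overlap, against 23.8% of all 74267578 pairs of entries in the table. Gap43 was in 6 of the 11 and was the lower-shifted gene in each, with Tubb3, Dcx, Map2, Mapt, Stmn2 and Crmp1 as its partners. Stmn3 was in 4 and Dpysl3 in none (0 of 8 pairs). Such a difference describes 2 genes against each other and does not say which of them changed. The share among the 9 genes was not tested against that of the table.

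**Figure D4:**
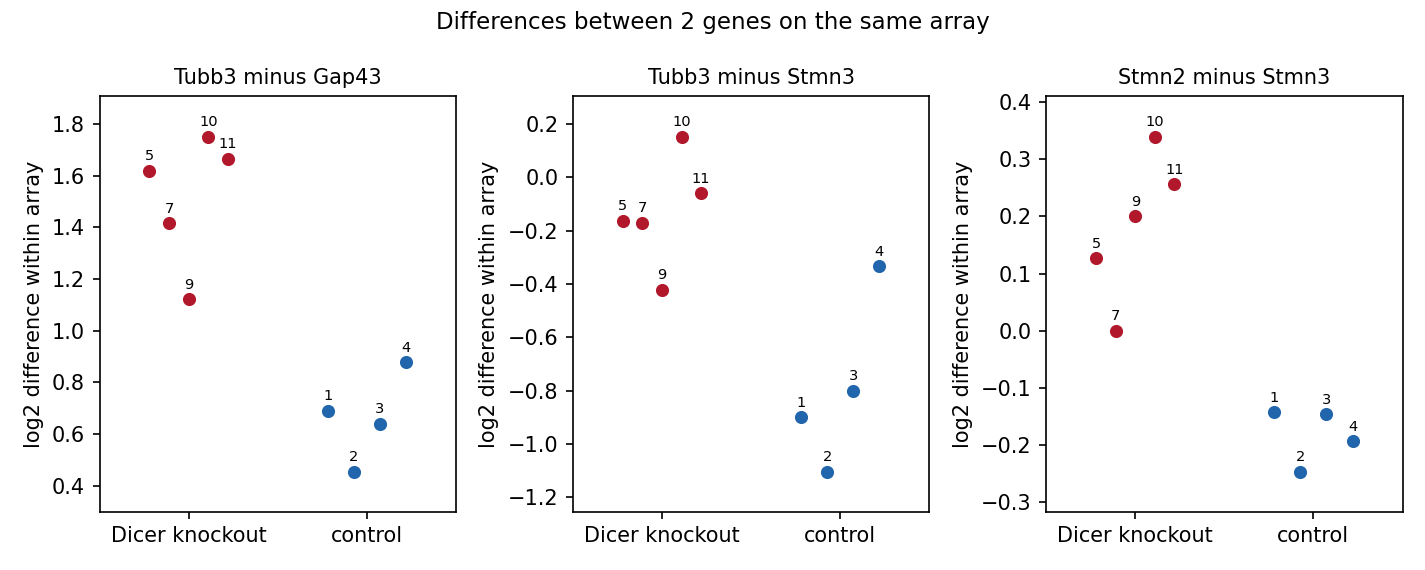
Log2 difference between 2 genes on the same array (vertical axis, a range of its own in each panel) for Tubb3 minus Gap43, Tubb3 minus Stmn3 and Stmn2 minus Stmn3 in Dicer knockouts (red, left) and controls (blue, right), each point 1 array with its replicate number. In the panels of Tubb3 minus Gap43 and Stmn2 minus Stmn3 all 5 knockouts lie above all 4 controls, control 4 included. In the panel of Tubb3 minus Stmn3 knockout 9 lies under control 4.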

How the data were processed

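Expression was measured on 1-colour Affymetrix arrays with biotin-labelled total RNA, per the labels' protocols. The authors deposited log2 values, 1 per gene identifier and array. They used affy, per the submitters' processing notes. No version, background correction, normalization or filter is given in the sources used here. The log2 scale was read from the values (2.72 to 14.1). No 2 of the 9 arrays held identical values (0 of 36 pairs), and 0 columns lacked a sample. There is no read depth on arrays, and precision is limited by the count of embryos.

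All 12188 entries were fitted with limma 3.58.1 in R 4.3.3 (lmFit and eBayes), knockout against control without covariates, and in a fit of 3 groups by genotype and labelled sex. P-values were adjusted over the whole table (Benjamini-Hochberg). The fit was tested on simulated data in which each entry varied independently. The shared deviations of these genes across embryos were not part of that test, and its outcome is not given here. The members and lists were chosen with earlier results of these data known. All 9 members are named. Lists of other cytoskeletal genes and of cell type markers could not be applied, because the RefSeq table (49997 genes, GRCm38.p6) pairs 0 of its genes with Ensembl identifiers. Gene places and promoters were matched by symbol (9 of 9 genes, and 5 genes with 7 promoter windows searched). Overlapping matches of a motif were counted singly. Alternatives were quantile normalization, subtraction of array medians, leaving out the dimmest 50% of entries, array weights, robust spread with an intensity trend, sex as a covariate, males only, and leaving out each array or knockout 7 with control 4. Figures were drawn with matplotlib 3.10.9.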

Additional observations from a re-analysis of the deposited data

Results flagged for a closer look

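In 4 genes control 4 lay farther from the other controls than the 95% limit for 4 samples allows, measured as its gap to the nearest control over the range of the group. Its value was 8.62 for Dcx (ratio 0.86), 7.72 for Mapt (0.903), 9.998 for Stmn2 (0.926) and 10.19 for Stmn3 (0.852). Tubb3 came close, with 9.86 and a ratio of 0.817. The same check was made for all 9 genes in both groups, 18 in all, and no knockout passed the limit for 5 samples. Chance puts about 1 in 20 such groups past the limit, and the 4 share 1 array, so they are not independent of each other.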

How the results depend on the processing

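Tubb3 stayed higher in the knockout and called over all 9 arrays under every alternative run but males only, where none of the 9 genes was called (0; Tubb3 0.71, limma adjusted p = 0.0813). With each array left out in turn the genes called numbered 1 to 2, where Gap43 (-0.48, adjusted p = 0.0313) joined without control 4. Dcx, Map2, Stmn2 and Crmp1 kept a positive and Gap43 a negative change under every alternative run, though some of these changes were very small. Without control 4 the change was 0.14 for Dcx, 0.06 for Map2, 0.00051 for Stmn2 and 0.16 for Crmp1. Gap43 was at -0.04 with sex as a covariate and with males only. Stmn3 turned to 0.037 after quantile normalization and to 0.28 with sex as a covariate and with males only. Because every knockout was labelled male, both of these sex settings give the same log2 changes as the comparison with control males. The fit with sex as a covariate is that comparison itself. Its Tubb3 call (limma adjusted p = 0.0469) is therefore not a further one. With arrays left out singly Stmn3 ran from -0.36 to 0.0914, Dpysl3 from -0.0808 to 0.22 and Mapt from -0.0401 to 0.45. Against control males the count was 0 with array weights and without knockout 7 and control 4 together, and 0 to 6 with single arrays left out. Between control males and females it was 0 to 3. The counts of 6 and 3 come from the fits without control 3, in which control 4 is the only control male and 18.8% and 8.02% of all entries were called. Of all entries, 4562 were called with array weights, 1285 with sex as a covariate, 324 with males only and 1976 to 3263 with single arrays left out (1976 without control 1). Apart from fewer samples or degrees of freedom, the cause was not tested. No paired analysis was possible because the groups share no replicate number and litters are not assigned to embryos. Signal over background could not be assessed, as no detection call per entry was used here.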
